A study of Mus musculus with 41 samples.

Results

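*Gli1*, *Gli2*, *Gli3*, *Ptch1*, *Smo*, *Hhip*, *Sufu*, *Boc* and *Gas1*, 9 of the 21755 protein-coding genes annotated on the autosomes and the X chromosome of the mouse, encode the core of the Hedgehog pathway. They were chosen by name, not by a measured value, but with earlier results of these data known. A CUT&RUN (CNR) peak was assigned to a gene where it overlapped the gene body or the 50 kb to either side (mm10, GENCODE vM21), so peaks closer to a neighbouring gene were counted as well. The loci ran from 103 kb for *Gas1* to 367 kb for *Gli3*. *Gli1* shared its locus with 8 other protein-coding genes, *Sufu* with 5, *Smo* with 2, *Ptch1* and *Boc* with 1 each, and the other 4 with none.

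Hedgehog ligands bind the receptor PTCH1, which otherwise holds the membrane protein SMO inactive. HHIP is a decoy that captures the ligand, whereas BOC and GAS1 are co-receptors that help PTCH1 to receive it. Active SMO signals at the primary cilium, frees the GLI transcription factors from their inhibitor SUFU, and thereby switches on target genes that include *Gli1*, *Ptch1* and *Hhip* themselves. In skin the pathway drives hair follicle growth, and its unrestrained activity is the hallmark of basal cell carcinoma.

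The study switched on the transcription factor SOX9, a hair follicle regulator, in epidermal stem cells (EpdSCs), which normally lack it, and followed by CNR where SOX9 and the histone methyltransferases MLL3/4 sat on chromatin. In vivo, cells came from back skin of male CD1 mice of genotype K14rtTA; TRE-myc-Sox9, the same in every in vivo group, with doxycycline (DOX) injected at postnatal day 21 and then given in the feed. SOX9 was profiled at D0 (postnatal day 21, no DOX) and after DOX for 1 week (W1, day 28), 2 weeks (W2, day 35), 6 weeks (W6, day 63) and 12 weeks (W12), and MLL3/4 at the first 3 of these. In culture, keratinocytes of genotype K14rtTA; TRE-myc-Sox9 (WT-SOX9), TRE-myc-Sox9noTA (without the transactivation domain, dTA-SOX9) or TRE-myc-Sox9noHMG (without the DNA-binding domain, dHMG-SOX9) were profiled for the MYC tag of the transgenic protein and for MLL3/4.

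The transgene needs rtTA, which the K14 promoter drives in basal keratinocytes, so induction was limited to cells with that promoter active. The cultured lines carried the transgene after lentiviral transduction and drug selection. The W12 skin had been grafted onto immunodeficient Nude mice, and the other animals aged with the weeks of DOX, so weeks of DOX, age and grafting cannot be told apart. Cultured cells received DOX at 1 µg per ml, and WT-SOX9 cells without DOX were the control for all 3 forms of the protein, so the mutants had no control of their own. Cells from skin were sorted as CD49f-high, CD34-negative and Ly6A-high, negative for endothelial, immune, melanocyte and fibroblast surface markers.

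Each group had 2 samples and 1 list of peaks called on them pooled, 16 lists in all, and a list of replicate 1 alone was used only for the MYC tag and MLL3/4 without DOX. No spread between replicates could be given, no test between groups was made, and shares carry 95% Wilson confidence intervals (CI) that cover counting error only. Peaks of 1 locus are not independent, so the true uncertainty is larger. SOX9 and MYC-tag maxima are in RPKM, with 13.1 to 32.5 M fragments implied per SOX9 list and 4.04 to 6.09 M per MYC-tag list, whereas MLL3/4 maxima are unscaled coverage of unknown depth. They are given for each list, and a higher or lower value in another list is not read as a change. Of 6 genes that define basal keratinocytes, 5 (all but *Itgb4*) had a D0 MLL3/4 peak within 1 kb of a start, against 0 of 3 endothelial, 0 of 3 immune, 0 of 3 fibroblast, 1 of 3 melanocyte (*Dct*) and 1 of 3 hair follicle bulge genes (*Nfatc1*). At W2 the same 5 keratinocyte genes and *Nfatc1* had one, *Dct* had none, and 1 of 3 fibroblast genes had one (*Col1a1*). In the cultured cells without DOX it was 3 of the 6 keratinocyte genes and 1 of 3 endothelial genes (*Pecam1*). The part of such cells in the results was not tested.

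The SOX9 sites on which the results turn are shown first, each as the 101 bases around the centre of its highest maximum, on the plus strand of GRCm38.p6 (RefSeq). They are the highest site of all 9 loci (*Gas1*), the highest *Sufu* site, the *Sufu* site at which the MYC tag was highest, the *Smo* site present at every induced time point, the *Gli3* site that peaks of cultured WT-SOX9 cells overlapped, and the only site with a SOX word within 10 bases of its centre (*Boc*). The *Gli3* bases printed are those around the skin maximum and lie outside these cultured peaks. Capitals mark ATTGT, the core of the sequence that SOX proteins bind, the longer SOX word GCATTGT that holds it, and TGACTCA, the AP1 word of FOS and JUN, each on either strand.
Gas1, 40.2 kb upstream, chr13:60217558-60217658: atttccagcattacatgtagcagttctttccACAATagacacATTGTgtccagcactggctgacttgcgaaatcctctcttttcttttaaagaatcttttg
Sufu, 7.42 kb upstream, chr19:46389424-46389524: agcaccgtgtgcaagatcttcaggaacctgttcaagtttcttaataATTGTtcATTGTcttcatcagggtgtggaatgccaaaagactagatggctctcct
Sufu, 44.6 kb upstream, chr19:46352282-46352382: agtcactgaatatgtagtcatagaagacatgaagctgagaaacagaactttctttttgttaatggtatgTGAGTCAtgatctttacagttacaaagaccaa
Smo, 5.55 kb upstream, chr6:29729904-29730004: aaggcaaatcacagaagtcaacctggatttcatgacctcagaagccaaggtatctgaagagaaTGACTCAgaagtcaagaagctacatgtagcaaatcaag
Gli3, 5.31 kb downstream of the start, chr13:15468499-15468599: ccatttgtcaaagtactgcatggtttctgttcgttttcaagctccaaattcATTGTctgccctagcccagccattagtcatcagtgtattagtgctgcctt
Boc, 42.7 kb upstream, chr16:44601524-44601624: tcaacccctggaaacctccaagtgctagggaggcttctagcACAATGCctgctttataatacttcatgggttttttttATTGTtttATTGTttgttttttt

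To ask when SOX9 reached the Hedgehog genes, its peaks were counted at each time point. At D0 none of the 9 loci held a SOX9 peak, and 6.09% of all protein-coding genes did. After 1 week 6 of the 9 had at least 1 peak (52.8% of all genes), after 2 weeks 8 (58.0%), after 6 weeks 7 (59.2%) and after 12 weeks 5 (40.2%). SOX9 was thus found at 5 to 8 of the 9 loci once induced, and *Hhip* was the only one without it at every time point. The 9 loci together held 15, 27, 25 and 11 peaks in the 4 induced lists, which were 15651, 18657, 20579 and 9745 peaks long. These are bulk samples, in which fewer bound cells and less binding per cell cannot be told apart. Per Mb of locus there were 8.57, 15.4, 14.3 and 6.28 SOX9 peaks, beside 9.52, 12.2, 12.2 and 5.02 at the loci of all genes. With lists of equal size, limited to the peaks of highest total signal, the counts were 7, 12, 11 and 11, so W12 no longer had the fewest, and W1 had.

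**Figure D1:**
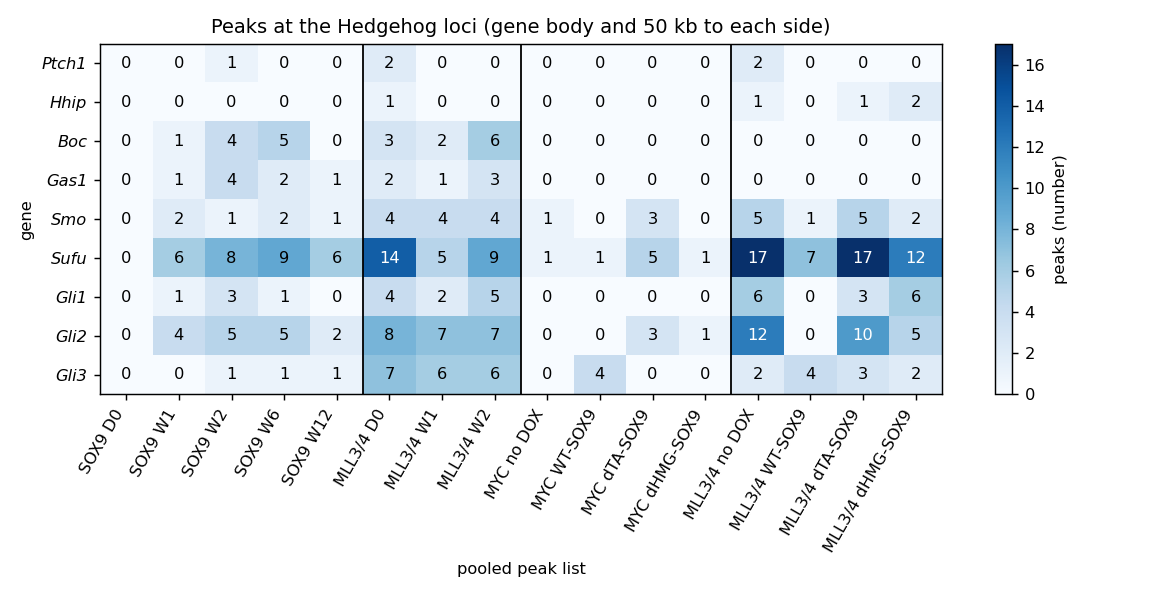
Number of peaks at each gene (rows, by role from receptor to transcription factor) in each of the 16 pooled lists (columns; vertical lines separate SOX9 in skin, MLL3/4 in skin, MYC tag in culture and MLL3/4 in culture). The SOX9 D0 column is 0 throughout, *Hhip* has no SOX9 or MYC-tag peak, and *Sufu* has the highest count in most lists.

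Merged over W1 to W12, the peaks formed 38 sites, 10 at *Sufu*, 8 at *Gli2*, 7 at *Boc*, 4 at *Gas1*, 3 each at *Gli1* and *Gli3*, 2 at *Smo* and 1 at *Ptch1*. At least 1 site was thus found at 8 of 9 genes, beside 67.7% of all genes. The median site lay 40.0 kb from the start of its gene, and 25 of the 38 lay in introns, 10 between genes, 2 in exons and 1 in a UTR. For 25 of the 38, the nearest start of a protein-coding gene was that of the Hedgehog gene itself. The strength of the sites was ordinary, with a median highest maximum of 2800 RPKM beside 2903 RPKM over all 28549 SOX9 sites of the genome.

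Of the 38 sites, 15 were found at 1 time point, 13 at 2, 4 at 3 and 6 at all 4. The share at all 4 was 15.8% (95% CI 7.44 to 30.4), beside 17.9% of all sites. Fewer sites than elsewhere were already there at W1, 15 of 38 or 39.5% (95% CI 25.6 to 55.3) beside 54.4%, an interval that still holds the share of all sites. First seen at W2 were 36.8% (95% CI 23.4 to 52.7) beside 20.0% of all sites, outside the interval. At W6 8 sites were new (21.1%, as of all sites) and at W12 1, in an intron of *Gli3*.

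**Figure D2:**
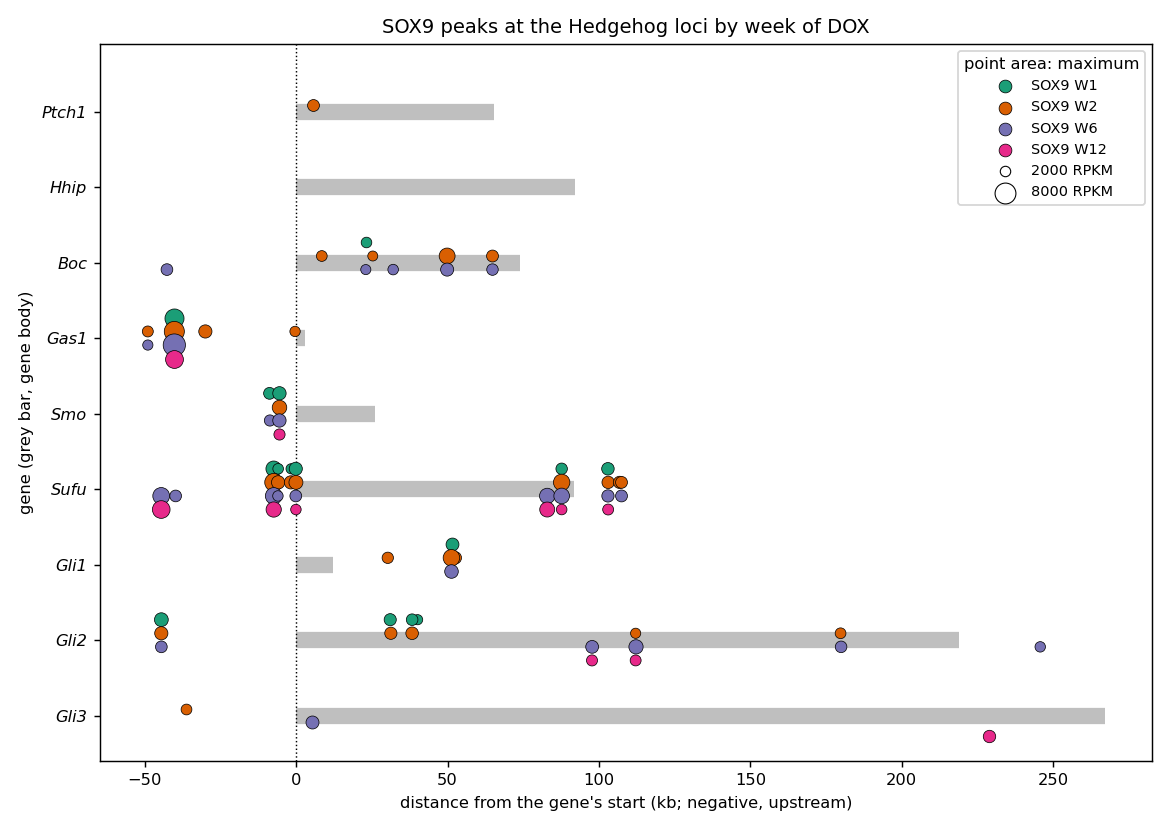
SOX9 peaks at the 9 loci, by distance from the start of the gene in kb (x axis) and gene (y axis; grey bar, gene body). Each point is 1 peak, coloured by week of DOX, with an area proportional to its maximum in RPKM. The column of large points 40.2 kb upstream of *Gas1* is present in all 4 weeks, and *Hhip* is empty.

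Among the genes that receive the ligand, *Ptch1* and *Hhip* had 1 peak between them, beside a median over all genes of 1 peak at W1, W2 and W6 and 0 at W12. *Ptch1*, the receptor and a classical target, had 1 SOX9 peak, at W2, and 0 at the other time points. That peak, in an intron 5.48 kb downstream of the start (chr13:63567698-63568209), reached 2598 RPKM or 34 fragments, and stood 74.9% of the way down the W2 list ordered by total signal. *Hhip*, the decoy, had no SOX9 peak at any time point. The weakest peaks in the 4 induced lists held 24 to 43 fragments, so weaker binding at these genes was not detectable.

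The co-receptor genes both had SOX9 peaks at W1, W2 and W6. *Boc* had 1, 4, 5 and 0 SOX9 peaks at W1, W2, W6 and W12, at 7 sites of which 6 were in its introns. Its highest site, 49.9 kb into the gene (chr16:44508607-44509451), reached 4660 RPKM at W2 and 3148 RPKM at W6 and was missing at W1 and W12. *Gas1* had 1, 4, 2 and 1 peaks, and was the gene with the highest SOX9 maximum of the 9. That site, 40.2 kb upstream between genes (chr13:60217454-60217905), was present at all 4 time points. Its maximum was 6684 RPKM at W1, 7411 RPKM at W2, 9109 RPKM at W6 and 5837 RPKM at W12, which is 116, 97, 217 and 127 fragments. By total signal it ranked within the top 40.1%, 27.8%, 22.3% and 34.7% of its lists, with widths of 447, 304, 307 and 367 bp. The start of *Gas1* itself had a SOX9 peak at W2 alone, of 1986 RPKM.

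*Smo*, the transducer, had 2, 1, 2 and 1 peaks. The site 5.55 kb upstream (chr6:29729650-29730288) was present throughout, with 3285, 3896, 3274 and 2298 RPKM at W1, W2, W6 and W12. A second one, 8.79 kb upstream, reached 2593 RPKM at W1 and 2309 RPKM at W6 and was missing at W2 and W12. Both were closer to the start of *Smo* than to that of any other protein-coding gene.

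*Sufu*, the inhibitor of the GLI factors, held the most SOX9 peaks of the 9, with 6, 8, 9 and 6 at W1, W2, W6 and W12. Only 3.16%, 2.56%, 1.76% and 0.644% of all genes had more in the respective list. Of its 10 sites, however, only 1 had the start of *Sufu* as the nearest, and the others were closer to *Actr1a*, *Trim8* or *2310034G01Rik*. The site at the start of *Sufu* (chr19:46396578-46397092) was present at all 4 time points with 3169, 3591, 2561 and 2022 RPKM. Present throughout as well was a site 7.42 kb upstream in an intron of *Actr1a* (chr19:46388773-46389783), with 4437, 5883, 5121 and 4274 RPKM. The 2 others present throughout lay in the last part of the gene, 87.7 kb downstream of the start (chr19:46483801-46484863), and past its end at 103 kb (chr19:46499706-46500411). Their maxima at W1, W2, W6 and W12 were 2420, 4966, 4492 and 2068 RPKM and 2881, 2827, 2770 and 2206 RPKM. First seen at W6 were 3 sites. The one 44.6 kb upstream, in an intron of *Mfsd13a* (chr19:46352061-46352587), was missing at W1 and W2 and reached 5205 RPKM at W6 and 5745 RPKM at W12, within the top 12% of the W12 list. The one 82.9 kb into *Sufu* had no peak at W1 or W2 either and reached 4366 RPKM at W6 and 4136 RPKM at W12. The third, 39.8 kb upstream, had 2519 RPKM at W6 alone.

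**Figure D3:**
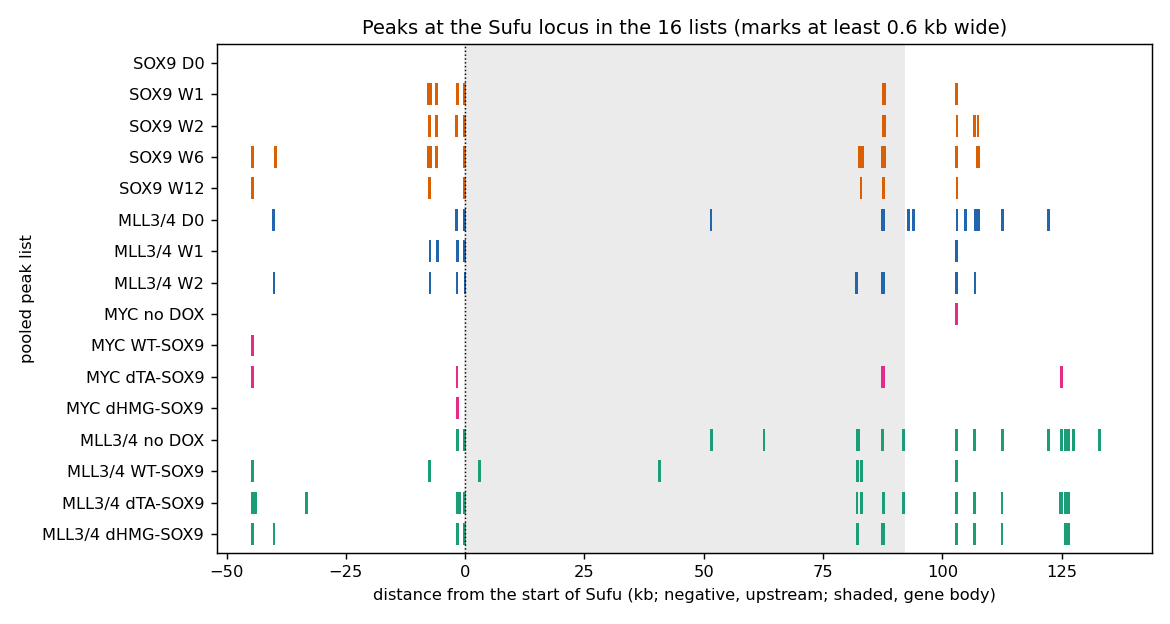
Peaks of the 16 lists (rows) at the *Sufu* locus, by distance from its start in kb (x axis; shaded, gene body), each mark being 1 peak drawn at least 0.6 kb wide. The SOX9 marks 44.6 kb upstream begin at W6, and the MLL3/4 marks 7.42 kb upstream are missing at D0 and present at W1, W2 and with WT-SOX9.

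Of the GLI factors, *Gli2*, the main activator, had 4, 5, 5 and 2 peaks at 8 sites, and 7 of these had its own start as the nearest. Its sites differed between time points. Those 31.3, 38.3 and 40.1 kb into the gene were found at W1 or W2 only, whereas the one 97.8 kb into it was found at W6 and W12 only. The highest, 112 kb into the gene (chr1:118941118-118941798), measured 1910 RPKM at W2, 3736 RPKM at W6 and 2206 RPKM at W12. *Gli3*, which mainly acts as a repressor, had 0, 1, 1 and 1 peaks, at a different place each time. Its highest was the W6 peak 5.31 kb into the gene, in an intron (chr13:15468213-15468783), of 3106 RPKM. *Gli1*, both an effector and a target of the pathway, had 1, 3, 1 and 0 peaks, none in the gene and all closer to the starts of *Mbd6*, *Ddit3* or *Mars*. The highest of these (chr10:127290514-127291159), 51.3 kb downstream at the start of *Ddit3*, measured 3054, 5042 and 3400 RPKM at W1, W2 and W6. At least 1 site in all 4 time points was found for 3 of the 9 genes, *Gas1*, *Smo* and *Sufu*, beside 27.4% of all genes.

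MLL3/4 was then compared before and after induction at the same loci. At D0 all 9 genes had at least 1 MLL3/4 peak (72.3% of all genes), and at W1 (68.5%) and W2 (65.5%) 7 of 9 had one, *Ptch1* and *Hhip* being without. The counts at D0, W1 and W2 were 2, 0 and 0 for *Ptch1*, 1, 0 and 0 for *Hhip*, 3, 2 and 6 for *Boc*, 2, 1 and 3 for *Gas1*, and 4, 4 and 4 for *Smo*. For *Sufu* they were 14, 5 and 9, for *Gli1* 4, 2 and 5, for *Gli2* 8, 7 and 7, and for *Gli3* 7, 6 and 6. At D0 the start of the Hedgehog gene was the nearest for 27 of the 45 peaks, but for 2 of 14 at *Sufu* and 0 of 4 at *Gli1*. All but *Smo*, with the same number, had fewer peaks at W1 than at D0, which is 8 of 9 beside 48.6% of all genes, or 67.3% of genes with a D0 peak. None had more (16.9% of all genes). This count depended on how peaks were assigned and limited. It was 3 of 9 with 100 kb to each side (69.8% of all genes with a D0 peak). With the stronger 50% of each list it was 4 of the 6 genes that still had a D0 peak (64.9%), and with lists of equal size 5 of 8 (57.0%). With 10 kb to each side it was 6 of 7 (62.3%), and with nearest starts only 8 of 8, for which no share of all genes was computed. At W2, 5 had fewer (49.4% of all genes, 68.3% of those with a D0 peak) and *Gli1*, *Boc* and *Gas1* had more (14.1%).

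Of the 45 D0 MLL3/4 peaks at the 9 loci, 27 had no overlapping peak at W1, 60% (95% CI 45.5 to 73.0) beside 48.5% of all D0 peaks. *Sufu* gave 11 of these 27. By W2 23 of the 45 were missing, 51.1% (95% CI 37.0 to 65.0) beside 48.7%. Gained at W1 were 9 of 27 peaks, 33.3% (95% CI 18.6 to 52.2) beside 39.7%, and at W2 19 of 40, 47.5% (95% CI 32.9 to 62.5) beside 35.7%. In each of these 4 comparisons the interval held the share of all peaks. For the W2 gained share it did not with 10 kb to each side (56%, 95% CI 37.1 to 73.3), with 100 kb (52.8%, 95% CI 39.7 to 65.6) or with nearest starts only (55.6%, 95% CI 37.3 to 72.4), each beside 35.7%. It did with the stronger 50% of each list (35.7%, 95% CI 16.3 to 61.2, beside 34.9%). With lists of equal size and with an overlap of 50% it did as well (47.5%, 95% CI 32.9 to 62.5, beside 40.6% and 37.4%). Weak peaks were lost more often than strong ones here as elsewhere, the lost D0 peaks at W1 having a median place of 69.3% from the top of the list and the kept ones 45.5%. The 4 peaks in the top 25%, 1 each at *Smo*, *Sufu*, *Gli2* and *Gli1*, were all kept at W1 and W2, beside lost shares of 12.7% and 13.9% for all D0 peaks of that rank.

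**Figure D4:**
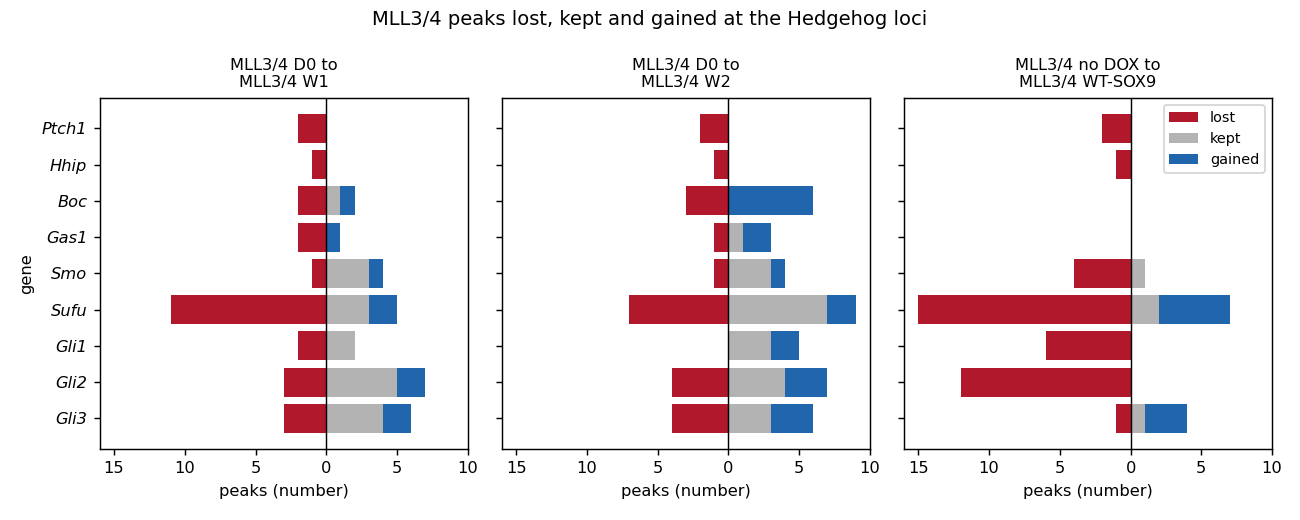
MLL3/4 peaks lost (left of 0), kept and gained (right of 0) per gene, from D0 to W1, from D0 to W2 and, in culture, from no DOX to WT-SOX9. The longest bars to the left are *Sufu*, with 11 of 14 peaks lost at W1 and 15 of 17 lost with WT-SOX9, and *Gli2* with WT-SOX9, where 12 of 12 were lost.

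By gene, the lost peak of highest total signal at W1 was 94.0 kb downstream of the start of *Sufu*, with a maximum coverage of 7 and a place at 27.3% of the D0 list. Those of the other genes were 24.8 kb into *Ptch1*, 14.0 kb upstream of *Hhip*, 21.9 kb into *Boc*, 48.6 kb upstream of *Gas1*, 8.31 kb upstream of *Smo*, 29.4 kb downstream of the start of *Gli1*, 11.8 kb upstream of *Gli2* and 21.1 kb into *Gli3*. All 9 lay outside the SOX9 peaks of W1. The gained peak of highest signal at W1 was the one 7.37 kb upstream of *Sufu* (chr19:46389315-46389750), with a coverage of 13 and a place at 17.6%, and it lay on a SOX9 peak. The corresponding gained peaks of *Boc*, *Gas1*, *Gli2*, *Gli3* and *Smo* were weaker, with a coverage of 5 to 8 and places at 67.9% to 93.0%, and lay on none. Of the lost peaks 2 of 27 lay on SOX9 at W1, 7.41% (95% CI 2.06 to 23.4) beside 7.58% of all lost peaks, both in the last part of *Sufu*. At W2 it was 4 of 23, 17.4% (95% CI 6.98 to 37.1) beside 9.06%, 1 each at *Gli2*, *Sufu*, *Boc* and the start of *Gas1*. Of the gained peaks 2 of 9 lay on SOX9 at W1, 22.2% (95% CI 6.32 to 54.7) beside 30.5%, and 6 of 19 at W2, 31.6% (95% CI 15.4 to 54.0) beside 38.5%. A gained MLL3/4 peak on a SOX9 peak of the same week was found at W1 for 1 of the 9 genes, *Sufu* (16.7% of all genes), and at W2 for 4, *Sufu*, *Boc*, *Gas1* and *Gli2* (19.1%).

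Seen from the SOX9 sites, 18 of the 38 overlapped a D0 MLL3/4 peak, 47.4% (95% CI 32.5 to 62.7) beside 53.7% of all sites. At W1 it was 16, or 42.1% (95% CI 27.9 to 57.8) beside 59.8%, outside the interval, and at W2 24, or 63.2% (95% CI 47.3 to 76.6) beside 60.1%. With 10 kb to each side the W1 share was 45.8% (95% CI 27.9 to 64.9) and its interval held the 59.8%. Among the 15 sites that SOX9 occupied at W1, 11 had MLL3/4 in that week, 73.3% (95% CI 48.0 to 89.1) beside 82.1% of all such sites. MLL3/4 was missing at D0 and present at W1 or W2 at 10 sites, 26.3% (95% CI 15.0 to 42.0) beside 20.7%. The *Sufu* site 7.42 kb upstream was 1 of these, with no D0 peak and a maximum coverage of 13 at W1 and 12 at W2. At the strong *Gas1* site MLL3/4 appeared at W2 alone, with a coverage of 6, although SOX9 was there from W1. The highest *Boc* site had MLL3/4 at W2 alone too, with a coverage of 7, as had the *Gli2* site 44.5 kb upstream, with 6, and the *Gli3* site 5.31 kb into the gene, with 5. At the *Smo* site 5.55 kb upstream, by contrast, MLL3/4 was there in all 3 lists, with 16, 9 and 6 at D0, W1 and W2.

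MLL3/4 also appeared away from SOX9. The start of *Gli2* had no peak at D0 and 1 each at W1 and W2, with coverages of 5 and 6, and no SOX9 peak at any time point. At *Boc* none of the 3 D0 peaks was kept at W2 and 6 were gained, 1 of them at its start, with a coverage of 8, and only the one 49.9 kb into the gene lay on SOX9. *Gli1* gained 2 peaks inside the gene at W2, 2.06 and 2.86 kb from its start, without SOX9. At the start of *Gas1* the D0 MLL3/4 peak, of coverage 5, was missing at W1 and W2, and SOX9 was found there at W2. Both starts of *Sufu* and *Actr1a* kept MLL3/4 and had SOX9 at W1 and W2.

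**Figure D5:**
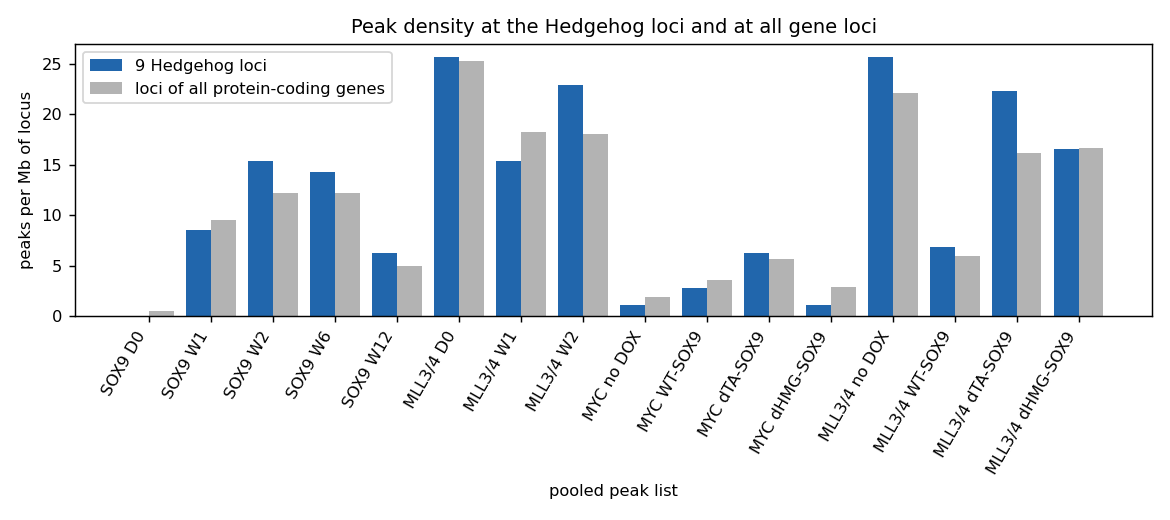
Peaks per Mb of locus for the 9 Hedgehog loci (blue) and for the loci of all protein-coding genes (grey) in each pooled list. The 2 bars of a list differ most, relative to their height, in the SOX9 D0 and dHMG-SOX9 MYC-tag lists, where the Hedgehog loci held 0 and 1.14 peaks per Mb beside 0.552 and 2.95.

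In culture, the MYC tag was used to ask which of the loci the wild-type and truncated proteins bound. A peak was found at 2 of the 9 genes without DOX (20.2% of all genes), 2 in WT-SOX9 cells (32.3%), 3 in dTA-SOX9 cells (41.4%) and 2 in dHMG-SOX9 cells (29.5%). The peaks numbered 2, 5, 11 and 2. WT-SOX9 had 4 peaks at *Gli3* and 1 at *Sufu*, whereas dTA-SOX9 had 5 at *Sufu* and 3 each at *Gli2* and *Smo*. *Ptch1*, *Hhip*, *Boc*, *Gas1* and *Gli1* had none with any form. Both peaks without DOX, 8.83 kb upstream of *Smo* (1822 RPKM, 9 fragments) and 103 kb downstream of the start of *Sufu* (2226 RPKM, 11 fragments), lay on SOX9 sites of the skin, so these places gave signal before induction.

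The highest WT-SOX9 peak was at *Gli3*, 5.06 kb into the gene (chr13:15468169-15468462), with 3776 RPKM or 23 fragments. It overlapped the SOX9 site that the skin showed at W6 and an MLL3/4 peak gained with WT-SOX9, of coverage 12, where the cells without DOX had none. The other 3 peaks at *Gli3* held 12 to 14 fragments and overlapped no SOX9 peak of the skin and no MLL3/4 peak of WT-SOX9 cells. The WT-SOX9 peak at *Sufu* was the late site 44.6 kb upstream, with 2955 RPKM or 18 fragments. The dTA-SOX9 peak there had 9230 RPKM or 45 fragments and was the highest of the dTA-SOX9 list at the 9 loci. MLL3/4 at this site was missing at D0, W1 and W2 in skin and without DOX in culture, and reached a coverage of 19 in WT-SOX9 cells, and of 18 and 7 in the dTA-SOX9 and dHMG-SOX9 cells. The dHMG-SOX9 list thus had MLL3/4 there without a MYC-tag peak. At *Smo*, dTA-SOX9 peaks of 5333 and 3897 RPKM lay on both skin sites, 8.67 and 5.53 kb upstream, and WT-SOX9 had none. Of the dTA-SOX9 peaks 8 of 11 lay on MLL3/4 of the same cells, 72.7% (95% CI 43.4 to 90.3) beside 71.9% of all its peaks, and of the WT-SOX9 peaks 2 of 5, 40.0% (95% CI 11.8 to 76.9) beside 56.6%.

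MLL3/4 peaks in culture were fewest in WT-SOX9 cells, whose list was 10543 peaks long beside 33975 without DOX, and 25948 and 23301 in the dTA-SOX9 and dHMG-SOX9 lists. The samples behind the WT-SOX9 list are both described as replicate 2, so which cultures it holds is not certain. At least 1 peak was found at 7 of the 9 genes before DOX (71.5% of all genes), at 3 in WT-SOX9 cells (42.7%), at 6 in dTA-SOX9 cells (66.5%) and at 6 in dHMG-SOX9 cells (64.8%). *Boc* and *Gas1* had none in any of the 4. In the order no DOX, WT-SOX9, dTA-SOX9, dHMG-SOX9, *Gli2* had 12, 0, 10 and 5 peaks, *Gli1* 6, 0, 3 and 6, *Sufu* 17, 7, 17 and 12, and *Smo* 5, 1, 5 and 2. *Ptch1* had 2, 0, 0 and 0, *Hhip* 1, 0, 1 and 2, and *Gli3* 2, 4, 3 and 2. *Gli2*, *Gli1* and *Hhip* thus had none in WT-SOX9 cells and some in both mutants, and *Gli3* was the only one of the 9 with more in WT-SOX9 cells than before. Without DOX, the start of the Hedgehog gene was the nearest for 16 of the 45 peaks. This was 1 of 6 for *Gli1*, 6 of 12 for *Gli2* and 2 of 17 for *Sufu*, the others being closer to neighbouring genes. Among genes with at least 12 peaks without DOX, 4.81% had none with WT-SOX9, a limit set after the values of *Gli2* were seen.

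With WT-SOX9, 41 of the 45 MLL3/4 peaks of the loci were lost, 91.1% (95% CI 79.3 to 96.5) beside 82.0% of all peaks. In dTA-SOX9 cells it was 37.8% (95% CI 25.1 to 52.4) beside 44.3%, and in dHMG-SOX9 cells 48.9% (95% CI 35 to 63) beside 43.5%. In lists of equal size, where 12 peaks before DOX lay at the loci, the lost shares were 75%, 16.7% and 16.7%, beside 58.3%, 33.4% and 27.2% of all peaks. Fewer peaks than without DOX were found at 6 genes in WT-SOX9 cells (64.9% of all genes, 90.8% of those with a peak), at 3 in dTA-SOX9 cells (46.4%, 64.9%) and at 4 in dHMG-SOX9 cells (45.1%, 63.1%). More were found at 1 gene each, *Gli3* (4.26%), *Gli3* (13.2%) and *Hhip* (11.0%). Strong peaks were among those lost with WT-SOX9, 7 of the 10 in the top 25% (70.0%, beside 53.0% of all peaks of that rank), and none of the 10 was lost with dTA-SOX9 or dHMG-SOX9 (beside 7.45% and 5.50%). The lost ones of highest total signal lay 228 kb from the start of *Gli2*, past the end of the gene, with a coverage of 23, and 87.4 kb into *Sufu*, with a coverage of 35.

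Gained with WT-SOX9 were 8 of 12 peaks, 66.7% (95% CI 39.1 to 86.2) beside 41.8%, 5 at *Sufu* and 3 at *Gli3*. On a WT-SOX9 MYC-tag peak lay 2 of the 8, 25% (95% CI 7.15 to 59.1) beside 53.5%, and so 2 of the 9 genes, *Gli3* and *Sufu*, had such a peak (12% of all genes). The gained peaks at *Sufu* included the place 7.44 kb upstream, with a coverage of 8, where MLL3/4 was also gained in skin, although no MYC-tag peak was called there. A *Gli3* peak gained 229 kb into the gene, with a coverage of 13, overlapped the SOX9 site that the skin showed at W12 alone. The kept peaks were 1 at *Gli3*, 1 at *Smo*, the site 5.47 kb upstream, and 2 at *Sufu*.

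The sequences of the SOX9 peaks were searched on either strand for the SOX word CCATTGT, for the related word CCTTTGT, for the word GCATTGT printed above in capitals and for the word GCTTTGT, in the 50 bp on both sides of each maximum's centre. None of the 15 windows at W1 held one (0%, 95% CI 0 to 20.4, beside 18.4% of all W1 windows), nor did the 27 at W2 (95% CI 0 to 12.5, beside 15.5%) or the 11 at W12 (95% CI 0 to 25.9, beside 24.8%). At W6 4 of 25 did, 16% (95% CI 6.4 to 34.7) beside 18.8%. These 4 were the *Boc* sites 42.7 kb upstream and 32.0 kb into the gene, the *Gli2* site 97.8 kb into the gene and the *Sufu* site 39.8 kb upstream. At W2 the share of all peaks lay above the interval. In windows around the MYC-tag maxima a SOX word was in 0 of 5 for WT-SOX9 (95% CI 0 to 43.4, beside 34.3%) and in 2 of 11 for dTA-SOX9, 18.2% (95% CI 5.14 to 47.7) beside 12.6%. For SOX9 at W2, in windows that reached 100 bp out, the share was 7.41% (95% CI 2.06 to 23.4) beside 23.3%.

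The shorter core ATTGT is part of CCATTGT and GCATTGT but not of CCTTTGT and GCTTTGT, and was looked for after the sequences had been seen. It was found at W1 in 33.3% (95% CI 15.2 to 58.3) of windows beside 29.1%, at W2 in 18.5% beside 23.1%, at W6 in 28% beside 29.1% and at W12 in 45.5% beside 39.0%. The *Gas1* and the 7.42 kb *Sufu* sequence printed at the start each hold it 2 times, in the first on opposite strands and in the second on the same strand. The AP1 word TGACTCA was found in 1 of 15, 1 of 27, 4 of 25 and 3 of 11 windows, 6.67%, 3.70%, 16% and 27.3% beside 16.2%, 15.7%, 23.5% and 29.8%. Among the sequences printed it stands in the late *Sufu* site 44.6 kb upstream and in the *Smo* site. The word of the GLI factors, GACCACCCA, was in none of the 38 site windows, and in 0.00639% to 0.0161% of all windows of the 4 induced lists. The RUNX word AACCACA was in 0, 1, 1 and 0 windows at W1, W2, W6 and W12 (2.12%, 2.06%, 2.76% and 3.42% of all windows), and the GATA words AGATAAC and AGATAAG in none (3.17%, 2.71%, 2.04% and 1.49%).

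Other genes of the pathway, 37 in all, were counted in the same way. Before DOX 3 of the 37 had a SOX9 peak (6.09% of all genes), and in the 4 induced lists 22 (52.8%), 24 (58.0%), 23 (59.2%) and 16 (40.2%), while MLL3/4 was found at 31, 28 and 26 of them at D0, W1 and W2 (72.3%, 68.5% and 65.5% of all genes). Among the genes for ligands and their release, *Scube2* had 5 SOX9 peaks at W2, *Scube1* 4 and *Dhh* 3, as had *Disp1*, whereas *Shh* itself had no SOX9 or MLL3/4 peak in skin. In culture *Shh* had 1 MYC-tag and 1 MLL3/4 peak with WT-SOX9 and none in the other lists. At least 1 such peak was found at 32.3% and 42.7% of all genes. Among the genes of reception, *Gpc3* had 6 SOX9 peaks at W2 and *Cdon*, a co-receptor related to BOC, had 1. At the cilium it was *Arrb2* with 6, *Gpr161* with 5 and *Kif7*, a ciliary kinesin that regulates the GLI factors, with 3. Of the kinase and degradation genes *Csnk1a1*, a kinase that phosphorylates GLI proteins, had 8, *Spop* 5 and *Prkaca* 2, and of the targets *Bcl2* had 6, *Ccnd2* 3 and *Ccnd1* 2, as had *Foxe1*. The wider pathway thus showed SOX9 at shares of its genes close to those of all genes.

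The 3 protein-coding genes whose peak counts over the 16 lists were most like those of *Sufu* were *Tango6*, *Ambra1* and *Htra1*. Their mean absolute difference from *Sufu* was 1.44, 1.56 and 1.62 peaks per list. *Tango6*, for example, had 7, 7, 8 and 3 SOX9 peaks at W1, W2, W6 and W12 and 15, 5, 14 and 12 MLL3/4 peaks in the 4 cultured lists.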

How the data were processed

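CUT&RUN peak lists of 16 groups (from the sample titles), each pooled from 2 samples, were used, 32 of the 41 samples in all, and the JUN, ARID1a and BRG1 samples (9) were not. Upstream, the authors used Skewer for trimming, Bowtie2 2.2.9 for alignment to mm10, Picard against duplicates and SAMtools 1.3.1 to keep fragments up to 120 bp, then pooled replicates, made coverage with deepTools 3.1.2 and called peaks with SEACR (stringent, threshold 0.01). For SOX9 and the MYC tag, the deposited maxima are in RPKM, kept by the authors above 1800. For MLL3/4, the deposited pooled signal is unscaled coverage in whole numbers, so their depth is unknown and longer lists can follow from depth alone. The RPKM of 1 fragment was the largest step that divides all maxima of a list, and the fragments implied could be reads where mates were counted apart.

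Peaks were assigned to gene bodies plus 50 kb, sites were merged W1 to W12 peaks, and overlap meant at least 1 bp. The reference and all lists shared 20 chromosomes and 0 peaks ended past one. Scripts ran in Python 3.11.15 (numpy 2.4.6, pandas 2.3.3, matplotlib 3.10.9, and scipy 1.17.1 for intervals), and the overlap functions were tested on simulated peaks. Named were all 9 genes, per gene its highest SOX9 site, sites in all 4 induced lists, the highest MYC-tag peaks of WT-SOX9 and dTA-SOX9, the strongest MLL3/4 peak lost and gained at W1, up to 3 other pathway genes per role (1 is not reported here), and 3 genes like *Sufu*. Places named beside these were chosen after their values were seen. Members and lists were chosen with earlier results of these data known. Alternatives were loci of 10 and 100 kb, nearest start only, 3600 RPKM, an overlap of 50%, the stronger 50%, equal list sizes, merging within 500 bp, replicate 1 alone, and other words and windows.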

Additional observations from a re-analysis of the deposited data

Results flagged for a closer look

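The net number of MLL3/4 peaks of 3 genes, counted per list whether or not peaks overlapped, moved in opposite directions in different settings, each as a difference between single pooled lists that was not tested. *Gli1* had 1 peak more at W2 than at D0 in skin, and 6 fewer with WT-SOX9 and 3 fewer with dTA-SOX9 than without DOX in culture, differences of 7 and 4 peaks. *Gli3* had 1 fewer in skin, and 2 more with WT-SOX9 and 1 more with dTA-SOX9, differences of 3 and 2 peaks. *Hhip* had 1 more with dHMG-SOX9 and 1 fewer both in skin at W2 and with WT-SOX9, a difference of 2 peaks each. List lengths differed between these settings, from 10543 to 37072 peaks, and their part in the differences was not tested.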

How the results depend on the processing

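No paired analysis was possible because peaks were called on pooled replicates and the lists hold no column per sample. Of 124 alternative values for 29 results, 90 stayed within 1.5 times a count or within the interval of a share and 34 did not. SOX9 peaks at W1, W2, W6 and W12 were 9, 17, 15 and 6 with only those nearest to the gene's own start, 2, 6, 6 and 4 above 3600 RPKM, and 7, 12 and 11 at W1, W2 and W6 with lists of equal size. With 10 kb to each side they were 16 at W2 and 15 at W6, and with 100 kb 40 at W6. Genes with fewer MLL3/4 peaks at W1 were 3 of 9 with 100 kb (69.8% of all genes with a D0 peak), 4 of 6 with the stronger 50% of each list (64.9%) and 5 of 8 with equal sizes (57.0%), and at W2 3 of 8 with equal sizes (52.1%), where the lost share at W2 was 33.3% (40.7% of all peaks). Within the limit, those at W1 were 6 of 7 with 10 kb (62.3%) and 8 of 8 with nearest starts only. MYC-tag peaks above 3600 RPKM numbered 0 before DOX, 1 for WT-SOX9, 3 for dTA-SOX9 and 0 for dHMG-SOX9, and with 10 kb 1 before DOX and 1 for dHMG-SOX9. Replicate 1 alone gave 1 peak without DOX. In culture, equal sizes gave lost shares of 75%, 16.7% and 16.7% for WT-SOX9, dTA-SOX9 and dHMG-SOX9 (58.3%, 33.4% and 27.2% of all peaks). SOX words of 8 letters were in 4.00% of W6 and 0% of dTA-SOX9 windows (5.56% and 2.46% of all), and the core, added after seeing the data, in 33.3%, 18.5% and 45.5% at W1, W2 and W12. Fewer peaks in smaller loci or under stricter limits follow from the alternatives themselves, and the cause of the other moves was not tested. Shares over 2 to 45 peaks leave wide intervals, and MLL3/4 depth is unknown.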
